A study of Huso dauricus with 9 samples.

Results

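The gut of kaluga sturgeon (Huso dauricus) 14 days after release into a river was compared with that of fish taken at day 0, in 6 of the 9 libraries of a series on how stock enhancement affects the intestine. The fish, marked with a fluorescent dye, were set free in the Songhua River and caught again with nets, and each library is poly(A) RNA of the intestine of a different fish. The groups are Ori (stock enhancement for 0 days, 3 fish), D14FL (14 days, 3 fish) and D30FL (30 days, 3 fish), and the last serves here to show which changes of day 14 were still present at day 30. The sources used here give no age, sex or genotype of the fish. The sample labels do not say whether the marking, the net capture and the anaesthesia were the same for the fish of day 0. Without unreleased fish sampled at day 14, the days in the river, a possible difference in handling and capture, the season, the diet and a possible batch of libraries cannot be told apart.

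The gut epithelium takes up nutrients through the microvilli of its enterocytes and is renewed by dividing cells at the base of its folds. Food supply and stress act on this tissue through hormones: cortisol, the main glucocorticoid of fish, acts through receptors that switch on genes such as FKBP5 and DDIT4, while scarce nutrients slow the mTOR pathway, which drives cell growth. In many fishes pancreatic tissue lies close to or along the intestine.

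Values are the authors' FPKM (fragment counts normalised for transcript length and library size), divided by a size factor per library that brings the median change near 0, and are called scaled FPKM below. The read depth behind them is unknown. A log2 change is the difference of group means of log2(scaled FPKM + 1) with its standard error (SE) from limma, fitted across all 9 libraries and 54200 tested transcripts. For transcripts of low level it understates the change. A transcript was called at a Benjamini-Hochberg adjusted p under 0.05. Scaling brought the median change at day 14 from 0.38 to 0.04. The 7 epithelial markers VIL1, CDH1, EPCAM, FABP2, CDHR5, CDH17 and ANPEP were all above 0 in all 6 libraries. Their summed level was 2773 to 5180 scaled FPKM in Ori and 1514 to 2198 in D14FL, without overlap, and most of it was FABP2, a fatty acid-binding protein of enterocytes (2351, 3544 and 4842 in Ori, 1038, 1577 and 1436 in D14FL, not called, adjusted p = 0.313). Of the other epithelial markers CDH1 was called higher. The remaining 5 were not called and had log2 changes from 0.23 to 0.65, so the lower sum reflects FABP2 and not the markers as a set. The part of a shift in epithelial cells in the results below was not tested.

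At day 14, 1081 of 54200 transcripts (1.99%) were called, 435 higher (0.803%) and 646 lower (1.19%). These shares are the background for each count of called list members below. At such shares a short list would usually hold no call. They give no chance expectation for a list, because the lists and members were chosen with earlier results of these data known. Higher calls made up 40.2% of all calls, and 78.3% of the calls on the deposited FPKM without further scaling (1176 higher, 325 lower); with a pseudocount of 0.1 in place of 1 the share was 57.2%. Of 23752 tested transcripts whose best protein match is a sturgeon or another fish, 128 were called higher (0.539%) and 186 lower (0.783%), and the genes described below are of this kind. A protein match was lacking for 645 of the 1081 calls (59.7%). The calls rest on few fish: leaving out any of the 9 libraries moved the number of calls by over 1.5 times, from 89 without D14FL 1 to 2541 without D30FL 2. Of 71 named transcripts that were called, 7 passed under each of the 20 alternative settings run, namely DDIT4, INS, G6PC, FKBP5, K-CAM, C6 and the transcript listed as NOS2. None of the 71 reversed its direction, but changes this large, many of them chosen for groups that do not overlap, could hardly reverse.

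The strongest rises joined a brake on cell growth, genes that glucocorticoids induce in mammals, insulin and pancreatic enzymes. DDIT4 (TRINITY_DN36882_c0_g1_i4_1) encodes a stress-induced inhibitor of mTOR and stood at 4.59, 3.15 and 3.42 in Ori and 219.9, 86.9 and 229.9 in D14FL, all in scaled FPKM. The lowest fish of day 14 was thus far above the highest of day 0, and the log2 change was 5.14 (SE 0.42, limma adjusted p = 0.00137, n = 3 against 3). For DDIT4 and the other largest rises, such as G6PC, PHKG and CRISPLD2, groups without overlap were required by the naming rule. Their separation is therefore no further support. Of 14 tested glucocorticoid-induced genes, 4 were called higher and 0 lower, with a median log2 change of 1.78 beside 0.04 for all transcripts, and 10 lay above Ori without overlap, as did 16.1% of all transcripts. FKBP5, a co-chaperone that dampens the glucocorticoid receptor, was at 3.10, 1.76 and 1.94 in Ori and 22.4, 31.6 and 52.8 in D14FL. Its groups were well separated, with a log2 change of 3.42 (SE 0.46, adjusted p = 0.00774).

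KLF9, a transcription factor induced by glucocorticoids and thyroid hormone, had scaled FPKM of 1.09, 0.391 and 0.477 in Ori and 14.6, 11.3 and 23.6 in D14FL. HSD11B2, the enzyme that inactivates cortisol, was at 4.84, 6.15 and 5.06 in Ori and 20.9, 29.4 and 30.2 in D14FL. Both were higher in every fish of day 14 than in any of day 0, with log2 changes of 3.37 (adjusted p = 0.0185) and 2.12 (adjusted p = 0.0186). ZBTB16, a transcription factor, was listed at 0 in all 3 Ori libraries and stood at 4.79, 5.94 and 10.1 in D14FL, without passing the test (adjusted p = 0.0632). The gene of the glucocorticoid receptor itself, NR3C1, was not called (log2 change 0.76, adjusted p = 0.464). With single libraries left out the list held between 2 and 7 calls, all higher, and its median stayed between 1.44 and 2.03; the 2 calls were without Ori 3, D14FL 1 or D14FL 3, and the 7 without D30FL 2.

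Among genes that hold back growth or recycle cell contents, a few rose and most were not called. The list of mTOR brakes and autophagy had 2 of 27 members called higher, DDIT4 and ULK2, and 0 lower, with a median of 0.43. ULK2, a kinase that starts autophagy, had scaled FPKM of 7.07, 2.14 and 2.54 in Ori and 32.6, 29.8 and 23.7 in D14FL, apart in all fish (log2 change 2.72, adjusted p = 0.0328). MAP1LC3A, a protein of autophagosome membranes, was at 23.6, 10.6 and 11.2 in Ori and 81.2, 71 and 155 in D14FL and missed the threshold (adjusted p = 0.0506). Of 8 cell cycle inhibitors 2 were called higher and 0 lower, and the median was 0.07. GADD45G, a growth arrest gene, was at 2.37, 3.86 and 2.28 in Ori and 43.7, 20.5 and 38 in D14FL (log2 change 3.15, adjusted p = 0.00771). CDKN1A, the inhibitor p21 of cyclin-dependent kinases, was at 2.09, 2.73 and 1.11 in Ori and 12.5, 14.6 and 38.3 in D14FL, with the highest value in D14FL 3 (log2 change 2.80, adjusted p = 0.0440). NUPR1, a small stress-induced chromatin protein, was at 14.8, 5.11 and 7.66 in Ori and 95.7, 100.1 and 256 in D14FL and was called higher as well (log2 change 3.85, adjusted p = 0.0409).

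Genes of glucose release and fuel use followed in part. Of 11 fasting and gluconeogenesis genes 2 were called higher and 0 lower, and 10 of 11 changes were positive (median 0.83). G6PC, the enzyme that frees glucose from glucose 6-phosphate, had scaled FPKM of 6.13, 8.15 and 5.51 in Ori and 134, 217 and 81.1 in D14FL. Its lowest value at day 14 was far above the highest of day 0, and the log2 change was 4.16 (SE 0.55, adjusted p = 0.00759). ANGPTL4, a secreted inhibitor of lipoprotein lipase that rises in fasting mammals, was at 1.96, 1.80 and 1.25 in Ori and 13.2, 8.54 and 18.5 in D14FL (log2 change 2.38, adjusted p = 0.0220). PCK1, which starts gluconeogenesis, was at 0.558, 1.43 and 0.458 in Ori and 4.55, 7.53 and 7.45 in D14FL, above the threshold (adjusted p = 0.0652). PHKG, annotated as the muscle and heart form of the catalytic subunit of phosphorylase kinase, which triggers glycogen breakdown, was at 2.62, 0.0291 and 0.355 in Ori and 40.5, 80.1 and 123 in D14FL, with the 3 fish of each group widely spread but apart (log2 change 5.44, SE 1.10, adjusted p = 0.0349). TDO2, the first enzyme of tryptophan breakdown, was at 0.417, 0.338 and 0.392 in Ori and 9.08, 16.4 and 22.2 in D14FL and was the 1 called member of 19 amino acid breakdown genes (log2 change 3.53, adjusted p = 0.0262). DIO3, which inactivates thyroid hormone, was at 2.40, 0.482 and 0.168 in Ori and 28.6, 39.3 and 44.1 in D14FL, with the fish of day 14 close together (log2 change 4.38, adjusted p = 0.0272).

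**Figure D1:**
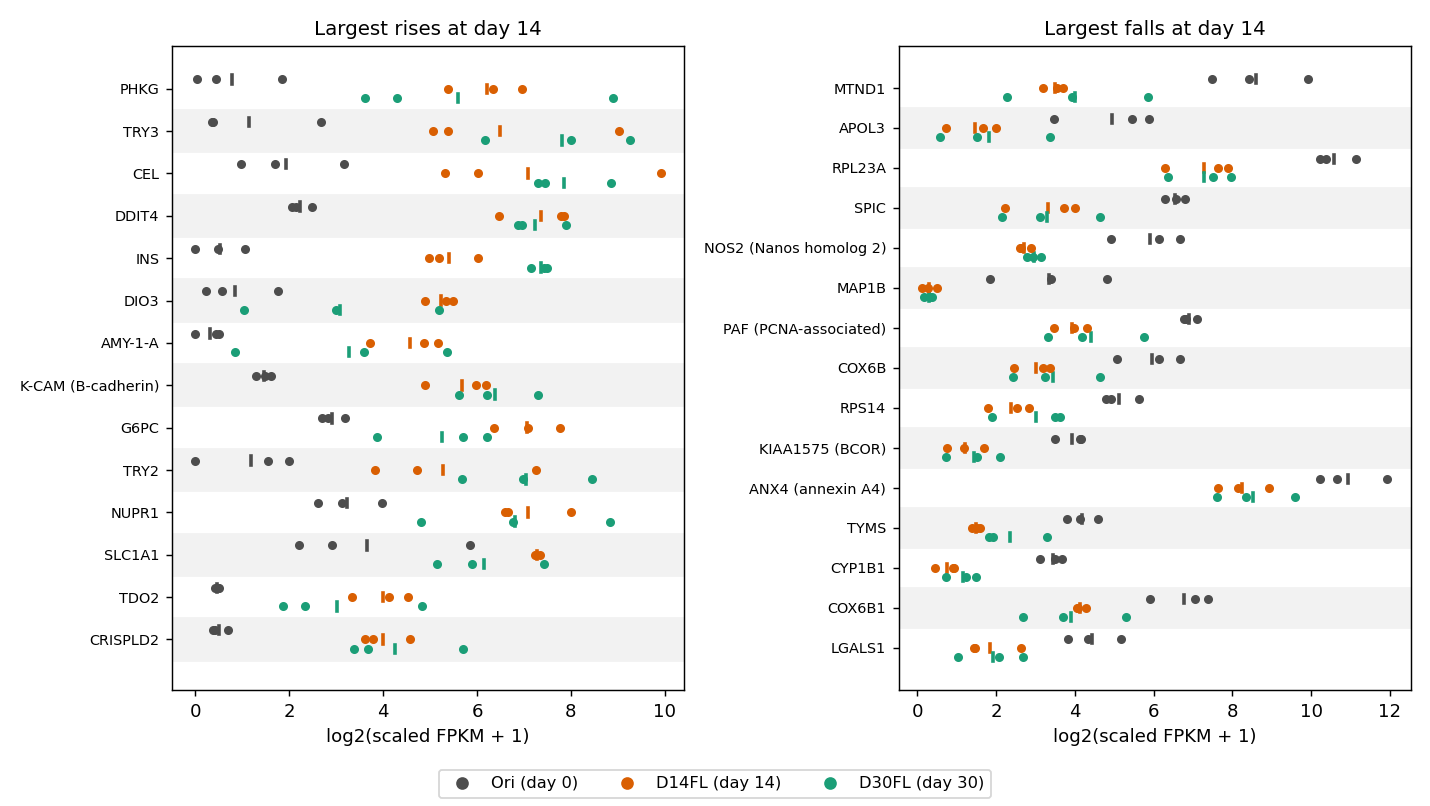
Log2(scaled FPKM + 1) of 14 of the 15 named transcripts with the largest rises (left) and the 15 with the largest falls (right) at day 14. Each dot is 1 library, each short bar the mean of a group, and colours give the groups Ori, D14FL and D30FL; the 3 Ori dots and the 3 D14FL dots of each transcript do not overlap, which the naming rule required, while some D30FL dots, such as those of DIO3 and SLC1A1, reach back to the Ori range.

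The summed level of pancreatic transcripts was higher in all 3 fish of day 14, by amounts that differed widely between the fish. For 17 pancreatic digestive enzymes it was 111.5, 137.3 and 286.7 scaled FPKM in Ori and 1271.5, 501.7 and 20718 in D14FL. D14FL 3 thus held most of the signal, but the lowest D14FL library was also above the highest Ori library. In this list 4 members were called higher and 0 lower, all 17 changes were positive, and the median log2 change was 4.69, while 9 lay above Ori without overlap (16.1% of all transcripts did) and 8 had a D14FL fish within the Ori range. Without D14FL 3 the median was 2.76 and 1 member was called; 0 were called without Ori 1, Ori 2 or D14FL 1, and 1 without Ori 3. CEL, a lipase that bile salts activate, was at 0.955, 2.22 and 7.93 in Ori and 63.9, 38.6 and 961 in D14FL, and TRY3, a trypsin, at 0.272, 0.299 and 5.38 in Ori and 40.9, 32.4 and 522 in D14FL; both were called, with log2 changes of 5.14 (SE 1.00, adjusted p = 0.0316) and 5.36 (SE 1.06, adjusted p = 0.0326). PNLIPRP2, a pancreatic lipase-related protein, was the 1 member with a high level at day 0, at 82.3, 90.2 and 74.5 in Ori and 272, 256 and 662 in D14FL (log2 change 2.11, SE 0.40, adjusted p = 0.0286). A transcript annotated as anionic trypsin (TRY2) and one as an alpha-amylase (AMY-1-A) were called with log2 changes of 4.09 and 4.26. Trypsin TRY1, the most abundant of the list in D14FL 3, was at 0.823, 8.22 and 66.1 in Ori and 334, 44.8 and 4941 in D14FL and was not called (adjusted p = 0.0935); D14FL 2 lay within the Ori range.

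INS (TRINITY_DN22802_c0_g1_i1_1), which encodes insulin of the pancreatic islets, followed another pattern across the fish. It had scaled FPKM of 0.405, 0 and 1.07 in Ori and 63.4, 35.6 and 30.6 in D14FL, with D14FL 3 the lowest of the day 14 fish rather than the highest, and the log2 change was 4.88 (SE 0.37, adjusted p = 0.00134). It was the 1 called member of 16 endocrine peptides and islet genes, whose median was 0.03. SST, which encodes somatostatin of islets and gut, was at 1028, 643 and 509.7 in Ori and 404, 251 and 475 in D14FL and was not called (adjusted p = 0.232). PYY, a hormone of gut endocrine cells, was at 0.527, 3.77 and 13.5 in Ori and 22.4, 14.9 and 13.6 in D14FL (adjusted p = 0.136). The part of pancreatic tissue taken along with the gut in these differences was not tested. In bulk tissue, fewer cells of a type and less RNA per cell cannot be told apart.

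**Figure D2:**
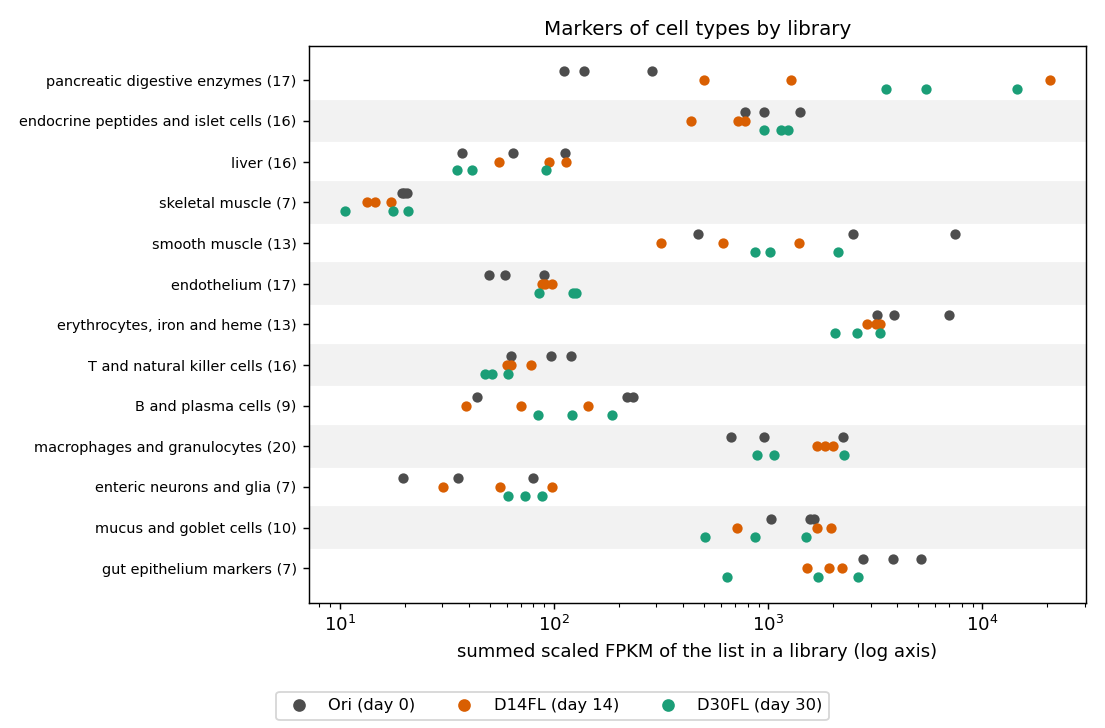
Summed scaled FPKM of 12 lists of cell type markers and of 7 gut epithelium markers in each library, on a log axis, with the number of members in parentheses. Each dot is 1 library, and colours give the groups. The pancreatic list spans 111.5 to 286.7 in Ori and 501.7 to 20718 in D14FL. The Ori and D14FL dots of the other lists overlap except for skeletal muscle and gut epithelium, which were lower in D14FL. Most of the gut epithelium sum is FABP2, and the other markers of that list had positive log2 changes.

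Levels of the other marker lists are the measured context of these changes. Among liver, smooth muscle, endothelium, erythrocyte and iron, T and natural killer cell, B and plasma cell, macrophage and granulocyte, enteric neuron and glia, and mucus lists, the summed levels of Ori and D14FL overlapped and 0 members were called. The skeletal muscle list of 7 fish-matched members was at 19.5 to 20.6 scaled FPKM in Ori and 13.3 to 17.3 in D14FL, again with 0 members called. The smooth muscle list ranged within Ori from 469.6 to 7411, with Ori 2 highest. The macrophage and granulocyte list had a median log2 change of 0.64, with 11 of 20 changes positive. Without overlap, 4 members lay above and 5 below Ori, beside 16.1% and 14.8% of all transcripts. AIF1, a marker of macrophages, had scaled FPKM of 193, 174 and 262 in Ori and 71.2, 57.9 and 75.4 in D14FL without overlap and narrowly missed the threshold (log2 change -1.59, adjusted p = 0.0528). FCER1G, a signalling chain of Fc receptors, lay the other way, at 4.96, 3.32 and 4.56 in Ori and 11.2, 14.6 and 16.2 in D14FL (log2 change 1.51, adjusted p = 0.0862). In the T and natural killer cell list the median was -0.28, and 6 of 16 changes were positive. On the deposited FPKM the median was 0.04, beside 0.38 for all transcripts. CD3E, a chain of the T cell receptor complex, was at 20.8, 9.36 and 11 in Ori and 6.16, 4.61 and 2.90 in D14FL (adjusted p = 0.101).

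Genes of cell division lay lower at day 14, and some of them passed the test. Of 37 tested cell cycle and DNA replication genes, 8 were called lower and 0 higher. All 37 changes were negative, with a median of -1.38 beside 0.04 for all transcripts, and 30 lay below Ori without overlap, as did 14.8% of all transcripts. TYMS, which makes thymidylate for DNA, had scaled FPKM of 16.7, 12.9 and 23.3 in Ori and 1.60, 1.86 and 2.03 in D14FL. The fish of day 14 lay close together, all well below day 0 (log2 change -2.68, SE 0.42, adjusted p = 0.0149). RRM2, a subunit of ribonucleotide reductase, was at 44.4, 30.4 and 49.2 in Ori and 8.42, 7.12 and 9.59 in D14FL (log2 change -2.16, adjusted p = 0.0293). The mitotic kinases AURKA, at 16.4, 18.5 and 16.3 in Ori and 2.33, 2.10 and 5.79 in D14FL, and PLK1, at 11.8, 11.2 and 13.6 in Ori and 2.32, 2.88 and 4.15 in D14FL, were called lower too (adjusted p = 0.0293 and 0.0311). In both, D14FL 3 was the highest of the day 14 fish and still below every Ori fish.

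PAF, annotated as the PCNA-associated factor that helps DNA polymerases at the replication fork, had scaled FPKM of 108, 112 and 137 in Ori and 14.9, 18.9 and 10.1 in D14FL (log2 change -2.97, adjusted p = 0.0216). Its binding partner PCNA was at 145, 93.4 and 148 in Ori and 40.9, 61.7 and 25.2 in D14FL and was not called (adjusted p = 0.133). The replicative helicase genes MCM2 to MCM7 had changes from -1.44 to -0.28 and 0 of the 6 were called. With single libraries left out, the cell cycle list held between 0 and 17 calls, all lower: 0 without Ori 3, D14FL 1 or D14FL 2, 1 without Ori 1, Ori 2 or D14FL 3, 2 without D30FL 1, 12 without D30FL 3 and 17 without D30FL 2. Its median stayed between -1.58 and -1.27 in these fits. On the deposited FPKM 3 members were called, and the median was -0.99 beside 0.38 for all transcripts.

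Most transcripts of the mitochondrial energy chain lay lower at day 14, with few calls. Of 40 nuclear-encoded oxidative phosphorylation genes, 2 were called lower and 0 higher, 39 of 40 changes were negative, and the median was -1.17, while 36 lay below Ori without overlap, beside 14.8% of all transcripts. On the deposited FPKM 0 were called and the median was -0.67, beside 0.38 for all transcripts. Leaving out any Ori or D14FL library, or D30FL 1, left 0 calls, and leaving out D30FL 2 or D30FL 3 gave 17 and 10. NDUFB9, a subunit of complex I, had scaled FPKM of 212, 167 and 217 in Ori and 49.8, 43.6 and 60.6 in D14FL (log2 change -1.93, adjusted p = 0.0356). COX6B1, a subunit of cytochrome c oxidase, was at 166, 58.7 and 131 in Ori and 15.9, 18.4 and 15.7 in D14FL (log2 change -2.63, adjusted p = 0.0457), and a second transcript of the same protein, listed as COX6B, was also called lower (log2 change -2.94). These may share reads. UQCRB and UQCRH, subunits of complex III, missed the threshold at log2 changes of -1.47 and -1.50 (adjusted p = 0.0540 and 0.0534). The best fish match of the transcript listed as UQCRB differs from that symbol.

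The symbols listed for 13 mitochondrially encoded genes occurred on no fish-matched transcript, so such transcripts were sought by protein name after the value of MTND1 had been seen, which gave 6 with a sturgeon match. Their summed share of all scaled FPKM was 4.51%, 6.42% and 3.76% in Ori and 1.94%, 1.69% and 1.60% in D14FL, without overlap. COI, cytochrome c oxidase subunit 1, was at 31593, 27602 and 16609 scaled FPKM in Ori and 8290.3, 8129 and 7504 in D14FL. ATP6, ATP synthase subunit a, was at 17691, 22943 and 13837 in Ori and 4147, 3631 and 3209.7 in D14FL. Neither passed the test (adjusted p = 0.202 and 0.0858). MTND1 (TRINITY_DN21591_c0_g1_i1_2), a subunit of complex I, was at 179, 960.0 and 344 in Ori and 10.8, 8.18 and 12.1 in D14FL and showed the largest fall among those named, with a log2 change of -5.12 (SE 0.79, adjusted p = 0.0129). COII, cytochrome c oxidase subunit 2, went the other way, at 2.38, 2.34 and 1.24 in Ori and 6.34, 3.48 and 13.5 in D14FL, at a far lower level and without passing the test (log2 change 1.41, adjusted p = 0.166). A more abundant transcript of the MTND1 protein, at 1696, 1052 and 506.9 in Ori and 442.2, 312.9 and 223.4 in D14FL, was not called (adjusted p = 0.111).

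Other genes of metabolism and protein synthesis that changed at day 14 were mostly lower. Of 24 fatty acid oxidation genes 3 were called lower and 0 higher, with a median of -0.38 beside 0.04 for all transcripts. On the deposited FPKM the median was 0.10 beside 0.38. ECI2, an isomerase of unsaturated fatty acid breakdown, had scaled FPKM of 127, 53.1 and 103 in Ori and 18.2, 24.8 and 25.1 in D14FL (log2 change -1.93, adjusted p = 0.0315), and the others were the peroxisomal thiolase ACAA1 (adjusted p = 0.0454) and the electron carrier ETFB (adjusted p = 0.0482). PKM, a pyruvate kinase, was the 1 called member of 17 glycolysis genes, at 23.8, 11.5 and 11.9 in Ori and 0.351, 2.65 and 2.63 in D14FL (log2 change -2.60, adjusted p = 0.0328); its best fish match is the related PKLR. Of 65 cytosolic ribosomal proteins 3 were called lower and 0 higher, 63 changes were negative, and the median was -0.62 beside 0.04 for all transcripts. Their median was -0.12 beside 0.38 on the deposited FPKM, and -0.09 beside 0.04 with quantile scaling. Called were RPL32, RPS27 and RPS14, parts of the large and small subunits. RPL32 was at 649.8, 557 and 538 in Ori and 147, 164 and 77.3 in D14FL (log2 change -2.23, adjusted p = 0.0158). A transcript of RPL23A that is not among these 65 list members was at 2254, 1329 and 1192 in Ori and 197, 235 and 77.2 in D14FL. It had a larger change of -3.31 (adjusted p = 0.0158), and several transcripts of 1 ribosomal protein can share reads. Of 23 antioxidant and xenobiotic defence genes 2 were called lower and 0 higher: CAT, catalase, at 78.4, 46.9 and 75.7 in Ori and 19.4, 21.3 and 19.7 in D14FL (adjusted p = 0.0418), and CYP1A1, which oxidises foreign aromatic compounds, at 25.3, 50.8 and 74.2 in Ori and 10.2, 9.72 and 13.7 in D14FL (adjusted p = 0.0451).

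**Figure D3:**
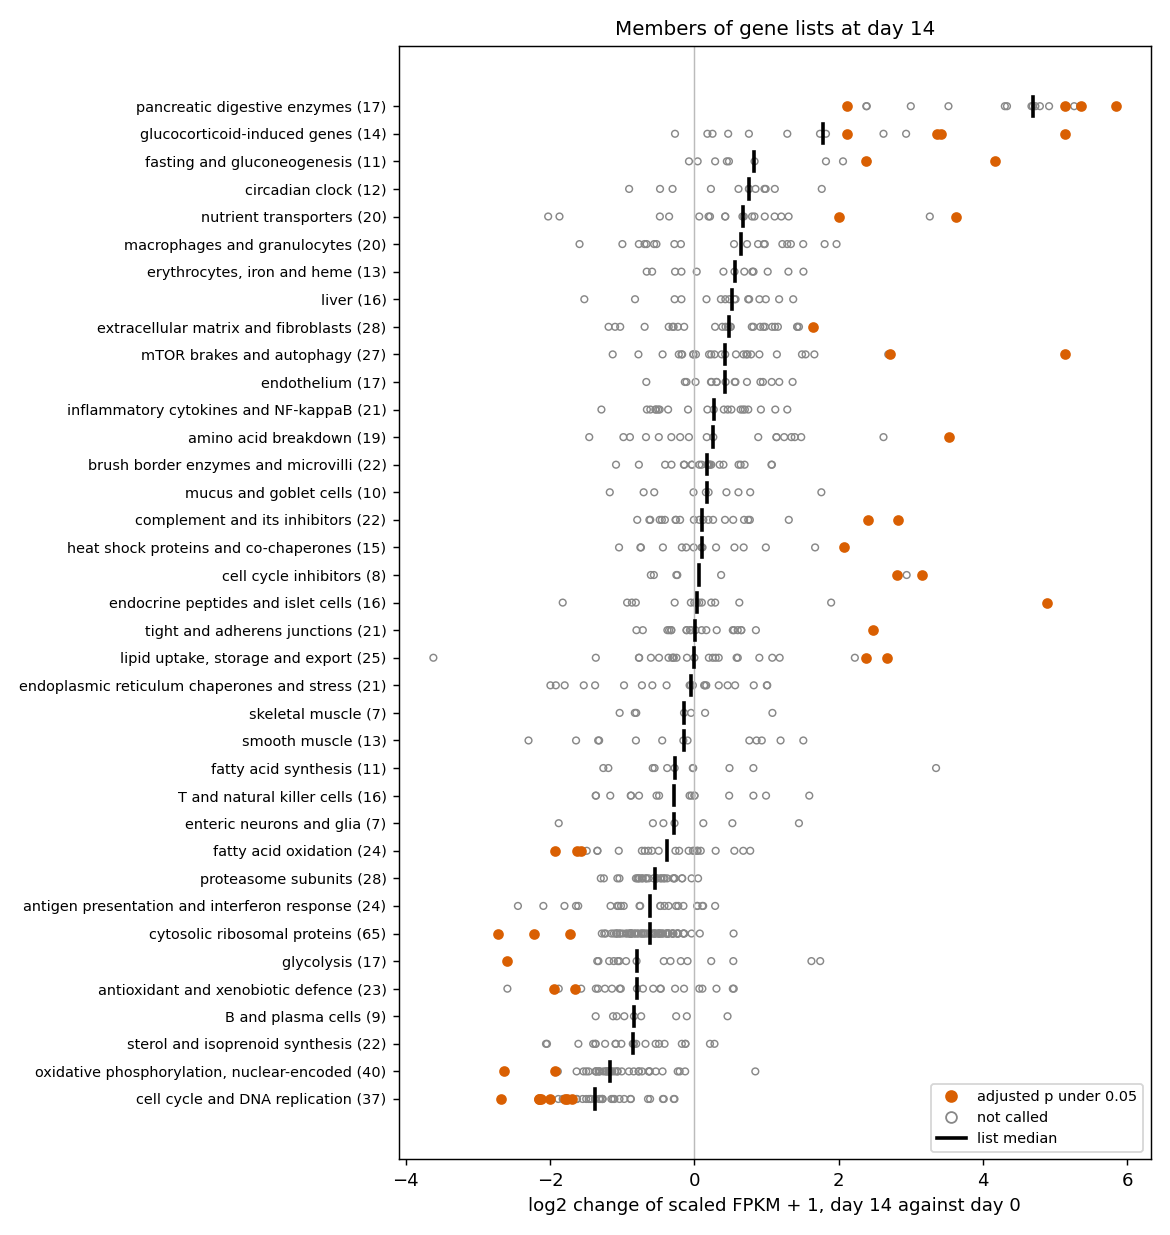
Log2 change at day 14 of each tested member of 37 gene lists, ordered by the list median (black bar), with the number of members in parentheses. Each circle is 1 transcript, filled where its adjusted p was under 0.05; cell cycle and DNA replication has the lowest median (-1.38), and pancreatic digestive enzymes (4.69) and glucocorticoid-induced genes (1.78) the highest.

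CYP1B1, a related oxidase, was also called lower, with scaled FPKM of 7.64, 10.4 and 11.8 in Ori and 0.372, 0.899 and 0.883 in D14FL (log2 change -2.67, adjusted p = 0.00869). No member of the sterol, fatty acid synthesis or proteasome lists was called, with medians of -0.85, -0.27 and -0.54. On the deposited FPKM the median of fatty acid synthesis was 0.13, beside 0.38 for all transcripts. SCD, the desaturase that makes monounsaturated fatty acids, was at 2.03, 4.21 and 9.03 in Ori and 32.3, 24.7 and 195 in D14FL, again above the threshold (adjusted p = 0.0670). ABCA1, a cholesterol exporter, was called higher, at 2.44, 2.42 and 4.92 in Ori and 22.3, 17.8 and 40.1 in D14FL (log2 change 2.67, adjusted p = 0.0390). FABP6, the bile acid-binding protein of the lower intestine, missed the threshold, at 2402, 7874 and 8355 in Ori and 354, 81.4 and 2921 in D14FL, with a wide spread within D14FL (adjusted p = 0.137).

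On the uptake side of the gut, 2 of 20 nutrient transporters were called higher and 0 lower, beside 0.803% and 1.19% of all transcripts. Among brush border genes 0 of 22 were called, which is near those shares. SLC26A3, the chloride and bicarbonate exchanger of the gut epithelium, had scaled FPKM of 19.4, 18 and 27.8 in Ori and 85.6, 95.1 and 85.2 in D14FL, with little spread in either group (log2 change 2.00, SE 0.28, adjusted p = 0.00986). SLC1A1, a carrier of acidic amino acids, was at 56.3, 6.55 and 3.62 in Ori and 161, 149 and 152 in D14FL, so Ori 1 stood well above the other Ori fish but below D14FL (adjusted p = 0.0473). CDH1, the cadherin of epithelial junctions, was at 7.54, 8.35 and 13.9 in Ori and 49.98, 47.7 and 81 in D14FL and was the 1 called member of 21 junction genes (log2 change 2.47, SE 0.37, adjusted p = 0.0129). A second cadherin transcript, K-CAM (B-cadherin), was at 1.45, 2.04 and 1.80 in Ori and 61.8, 28.6 and 71.8 in D14FL (log2 change 4.22, SE 0.46, adjusted p = 0.00332).

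Among the lists of defence genes, the calls were C6 and C7, late components of complement. C6 had scaled FPKM of 6.33, 6.11 and 7.19 in Ori and 56.2, 33.3 and 76.6 in D14FL and C7 at 15.4, 11.8 and 15.2 in Ori and 81.2, 57.4 and 103 in D14FL; both take part in the pore that complement builds in microbial membranes. The groups of both were apart, with log2 changes of 2.83 (adjusted p = 0.00668) and 2.40 (adjusted p = 0.00771), and the other 20 of 22 complement genes were not called. Of 24 antigen presentation and interferon genes 0 were called, with a median of -0.61 (-0.14 on the deposited FPKM, beside 0.38 for all transcripts). Without overlap, 8 of them lay below Ori and 0 above, beside 14.8% and 16.1% of all transcripts. With only the Ori and D14FL libraries in the fit, 4 were called lower and 0 higher. PSMB9, an immunoproteasome subunit, was at 49, 64.3 and 95.1 in Ori and 12.8, 14.3 and 8.13 in D14FL and IRF1, an interferon-induced transcription factor, at 59.7, 42 and 55.2 in Ori and 19.4, 18.8 and 11.8 in D14FL; neither passed (adjusted p = 0.0577 and 0.0560). Of 21 inflammatory cytokine and NF-kappaB genes 0 were called, as were 0 of 12 circadian clock genes and 0 of 21 endoplasmic reticulum chaperone and stress genes. Their medians were 0.27, 0.76 and -0.05, the last of which was 0.41 on the deposited FPKM, beside 0.38 for all transcripts. Without overlap, 4, 4 and 4 members of these 3 lists lay above Ori and 5, 2 and 7 below. With only the Ori and D14FL libraries in the fit, 4 of the endoplasmic reticulum genes were called lower and 1 clock gene higher. That fit called 1277 of all transcripts lower and 930 higher.

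Of 15 heat shock genes 1 was called higher and 0 lower: HSF2, a heat shock transcription factor, had scaled FPKM of 3.40, 9.78 and 3.05 in Ori and 23.3, 23.8 and 23.1 in D14FL (adjusted p = 0.0250). Another transcript, annotated as the heat shock cognate protein HSC71, was called lower, at 201, 238 and 132 in Ori and 31.4, 43.6 and 29.4 in D14FL (log2 change -2.40, adjusted p = 0.0129). In the extracellular matrix list THBS1, a matrix glycoprotein, was the 1 of 28 called, at 7.67, 9.78 and 10.5 in Ori and 37.2, 20 and 39.6 in D14FL (adjusted p = 0.0473). CRISPLD2, a secreted protein that glucocorticoids induce in mammals, was at 0.609, 0.304 and 0.339 in Ori and 12.8, 11.2 and 22.7 in D14FL, with all D14FL fish far above Ori (log2 change 3.49, adjusted p = 0.0139).

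Several of the largest falls were in genes outside these lists. SPIC, a transcription factor known from red pulp macrophages of mammals, had scaled FPKM of 110.2, 93.6 and 76.8 in Ori and 12.3, 15.1 and 3.65 in D14FL (log2 change -3.23, adjusted p = 0.0276). A transcript listed under the symbol NOS2 is annotated as Nanos homolog 2, an RNA-binding protein of germ cells, and not as nitric oxide synthase; it was at 69.1, 101 and 29.1 in Ori and 5.21, 6.46 and 5.08 in D14FL (log2 change -3.19, SE 0.41, adjusted p = 0.00667). ANX4, annexin A4, a membrane-binding protein of epithelia, was among the abundant ones, at 1185, 1621 and 3905 in Ori and 283, 197 and 484 in D14FL (log2 change -2.70, adjusted p = 0.0474). LGALS1, a galactose-binding lectin, KIAA1575, the corepressor BCOR, MAP1B, a microtubule-binding protein, and APOL3, an apolipoprotein L, had log2 changes of -2.60, -2.72, -3.05 and -3.47. In all of these the highest D14FL value was below the lowest Ori value, which the naming rule required.

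Of the 1081 changes called at day 14, 646 were called in the same direction at day 30 and 435 no longer passed the test. Of the 435 transcripts called higher at day 14, 243 were also called higher at day 30 and 192 were not; of the 646 called lower, 403 also were and 243 were not. At day 30 as a whole 1243 transcripts (2.29%) were called against day 0. Of these, 534 were higher (0.985%) and 709 lower (1.31%), and among fish-matched transcripts 373 were called (1.57%), 165 higher (0.695%) and 208 lower (0.876%). Both comparisons use the same Ori fish, so the shared calls are not independent. Among fish-matched transcripts, 73 of 128 rises and 100 of 186 falls were called again. The 192 rises that were not called had a median log2 change of 1.99 at day 14 and 1.42 at day 30, and the 243 falls -2.01 and -1.43. A smaller median at day 30 was largely fixed by the choice of these transcripts, which were called at day 14 and not at day 30. Of these, 169 rises and 230 falls had an unadjusted limma p under 0.05 at day 30 against day 0. Among all tested transcripts, 11845 had such an unadjusted p at day 30 against day 0. The rises and falls counted here were chosen at day 14 against the same Ori fish. That choice favours a difference from day 0 at day 30 as well. These counts therefore cannot show whether the transcripts returned to the day 0 level.

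The count of changes called again depended on single fish. It was 646 of 1081 with all libraries, 74 of 517 without D30FL 1, 168 of 2541 without D30FL 2 and 1413 of 1941 without D30FL 3. Day 30 was tested directly against day 14, and 0 of the 1081 changes turned back past the threshold; 1 of 54200 transcripts (0.00185%) passed this test at all, and 1893 had an unadjusted p under 0.05. Of the transcripts not called at day 30, 52 rises and 41 falls had an unadjusted p under 0.05 in the opposite direction. The change at day 30 was under 0.5 times that of day 14 in 31 rises and 22 falls, and 1 rise had the opposite sign. These transcripts were chosen for a large change at day 14 and no call at day 30. Smaller changes at day 30 follow in part from that choice, so the counts are no evidence of a return. The cases below, chosen in the same way, are those nearest to a return by unadjusted p, and each failed the adjustment over all transcripts.

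SLC40A1, the iron exporter ferroportin, had the smallest unadjusted p among these. This transcript (TRINITY_DN35576_c0_g2_i1_3) had scaled FPKM of 7.98, 6.73 and 13.7 in Ori, 35.2, 73 and 47.8 in D14FL and 5.49, 21.8 and 7.63 in D30FL. The fish of day 14 were all higher than those of either other day, and the log2 change was 2.33 at day 14 (adjusted p = 0.0367) and 0.11 at day 30, with a difference between days 30 and 14 of -2.23 (unadjusted p = 0.000621). A more abundant transcript of the same gene was at 291, 73.3 and 193 in Ori, 188, 425 and 276 in D14FL and 65.4, 33.9 and 116 in D30FL and was called at neither day. FAM13A1, annotated as FAM13A, was at 14.4, 7.87 and 14.3 in Ori, 48.3, 47.4 and 29.8 in D14FL and 9.10, 12.8 and 22.5 in D30FL (difference -1.50, unadjusted p = 0.00242). CXCL11.1, a chemokine that attracts T cells and macrophages, was at 0.820, 0.231 and 0.911 in Ori, 5.25, 5.01 and 4.98 in D14FL and 2.10, 1.51 and 1.49 in D30FL. Its day 30 values lay between the others (difference -1.18, unadjusted p = 0.00517).

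In G6PC, DIO3 and ACS4 the fish of day 30 differed widely among themselves. G6PC was at 13.5, 73 and 51.1 scaled FPKM in D30FL, so all 3 fish lay between the Ori and D14FL ranges, D30FL 1 nearest to Ori (log2 change at day 30 2.35, adjusted p = 0.0515; difference -1.81, unadjusted p = 0.00699). DIO3 was at 1.04, 35.7 and 6.96 in D30FL, with D30FL 1 inside the Ori range and D30FL 2 inside that of D14FL (difference -2.16, unadjusted p = 0.0220). ACS4, the fatty acid-activating enzyme ACSL4, was at 2.08, 3.72 and 4.40 in Ori, 30.3, 79.2 and 30.9 in D14FL and 7.64, 42.8 and 11.12 in D30FL, and D30FL 2 was again the highest of its group. BM-023, annotated as the ubiquitin ligase MYLIP that promotes degradation of the LDL receptor, was at 3.36, 3.68 and 5.34 in Ori, 12.7, 12.5 and 19.9 in D14FL and 6.97, 9.36 and 7.48 in D30FL. A transcript of the same assembled gene is annotated as KLF15 instead. It was at 0.796, 1.34 and 1.00 in Ori, 6.81, 4.76 and 6.55 in D14FL and 2.94, 2.795 and 4.46 in D30FL. These transcripts may share reads, and which annotation holds was not tested. A transcript listed as SB143, whose Swiss-Prot match is LIMD2 and whose best fish match is another protein, was low throughout, at 1.35, 0.493 and 1.25 in Ori, 5.64, 4.76 and 5.05 in D14FL and 0.939, 2.22 and 1.46 in D30FL.

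**Figure D4:**
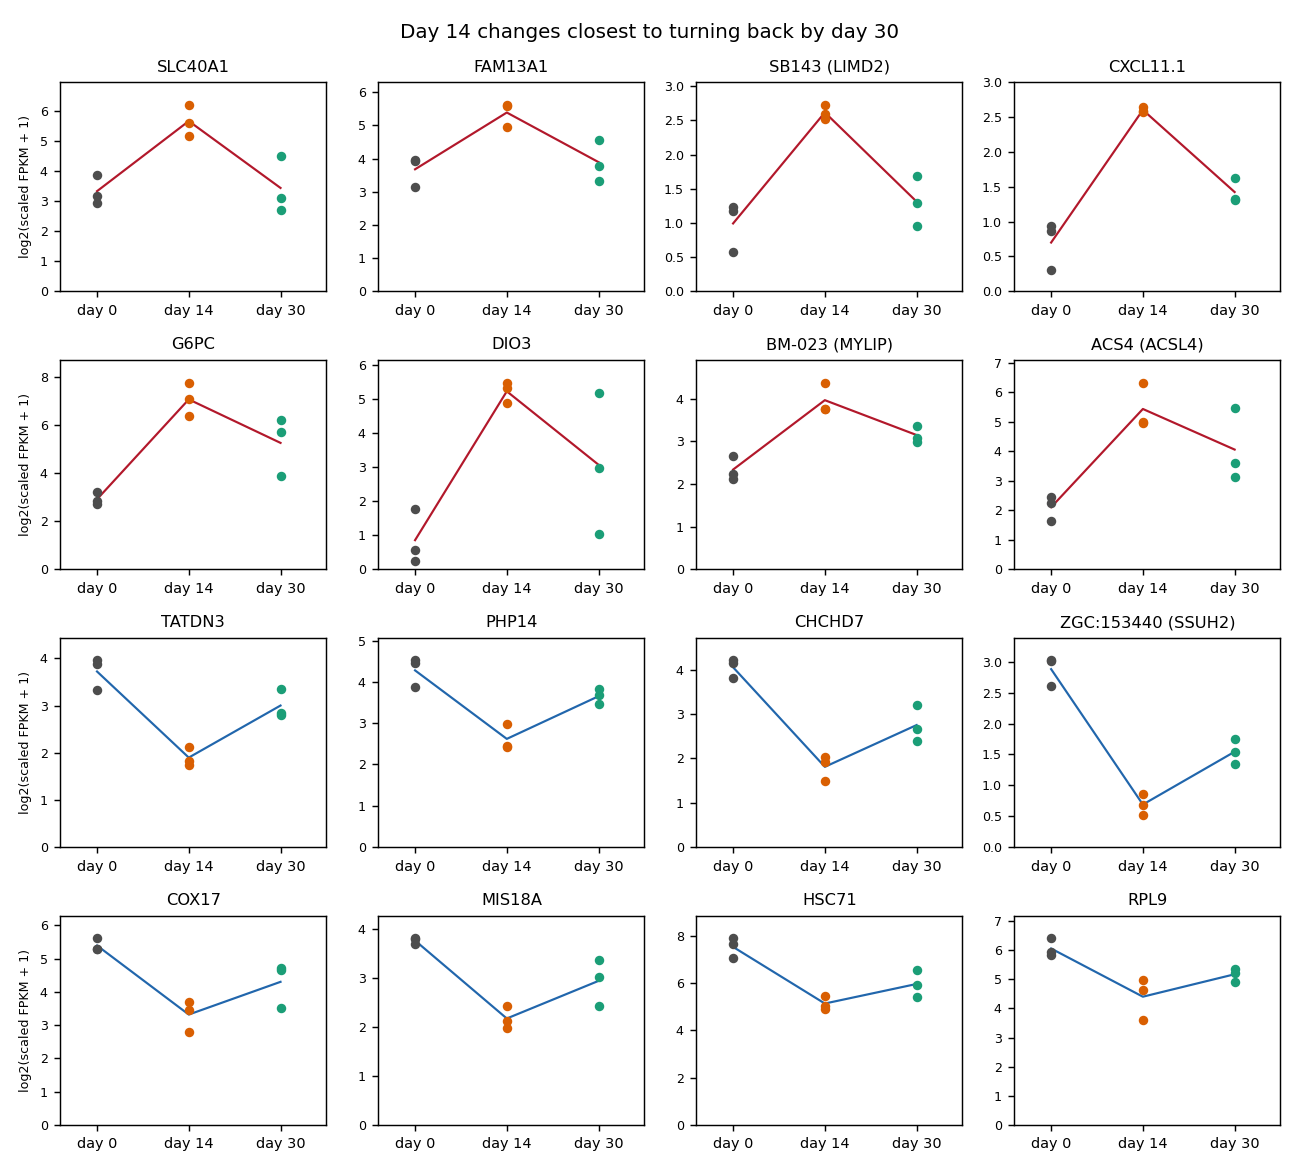
Log2(scaled FPKM + 1) at days 0, 14 and 30 of the 8 rises (red lines) and 8 falls (blue lines) of day 14 that came closest to turning back. Each dot is 1 library (3 per day) and the lines join the group means; SLC40A1 and FAM13A1 are near their day 0 level at day 30, while most falls regained only part of it, and none of the 16 passed the adjusted test of day 30 against day 14.

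The falls nearest to a return included small mitochondrial proteins. TATDN3, a putative deoxyribonuclease, had scaled FPKM of 9.12, 14.5 and 13.7 in Ori, 3.38, 2.34 and 2.54 in D14FL and 6.22, 5.93 and 9.24 in D30FL, with D30FL 3 within the Ori range (difference 1.10, unadjusted p = 0.00553). PHP14, a phosphohistidine phosphatase, was at 20.8, 13.6 and 21.9 in Ori, 4.46, 4.40 and 6.85 in D14FL and 13.1, 11.9 and 9.94 in D30FL (difference 1.03, unadjusted p = 0.00681). CHCHD7 and COX17, small proteins of the mitochondrial intermembrane space of which COX17 carries copper to cytochrome c oxidase, were at 8.18, 5.30 and 4.24 and 25.3, 10.4 and 24.4 in D30FL, after 2.80, 1.78 and 3.05 and 5.87, 10.1 and 12 in D14FL. Both remained below every Ori fish at day 30. MIS18A, which helps to mark centromeres, HSC71, RPL9 and a homolog of SSUH2 had differences between days 30 and 14 of 0.77, 0.83, 0.77 and 0.86, with unadjusted p from 0.0256 to 0.0624.

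The gene groups of day 14 differed in what was called at day 30. The list of 14 glucocorticoid-induced genes held 4 called higher and 0 lower at day 30, with a median of 1.54. Of its 4 members called at day 14, HSD11B2 was not called at day 30 (log2 change 1.45, adjusted p = 0.0560). DDIT4 was at 116, 238 and 123 scaled FPKM in D30FL, within or near the range of D14FL, and FKBP5 at 17.3, 54.9 and 19.7. KLF9 was at 3.12, 23.5 and 8.31, with D30FL 1 the lowest. Of the 37 cell cycle genes 3 were called lower at day 30 and the median was -1.0; the direct comparison of day 30 with day 14 called none. RRM2 was at 8.91, 7.71 and 24.9 and AURKA at 4.66, 3.21 and 8.73 in D30FL, with D30FL 3 the highest of its group in both, and neither was called at day 30 (adjusted p = 0.0580 and 0.0674). TYMS was at 2.51, 2.77 and 8.85 and remained called (adjusted p = 0.0485).

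Pancreatic enzymes and insulin were also higher at day 30: 12 of the 17 enzymes were called higher at day 30 and 0 lower, and the summed level of the list was 14527, 5462 and 3560.2 scaled FPKM in D30FL, above every fish except D14FL 3. INS was at 170.0, 141 and 179 in D30FL, above all 3 fish of day 14 (difference 1.96, unadjusted p = 0.000200, not called after adjustment). C6, C7, CDH1 and K-CAM were also called higher at day 30, with log2 changes of 2.66, 2.59, 3.09 and 4.92. SLC26A3 was at 48.5, 55.7 and 61.3 in D30FL, below every fish of day 14 and above every fish of day 0, and was still called (log2 change 1.32, adjusted p = 0.0390). ULK2, SLC1A1, TDO2 and AMY-1-A were not called at day 30 (adjusted p = 0.110, 0.112, 0.0631 and 0.0905), although their mean changes stayed positive, from 1.68 to 2.95.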

How the data were processed

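Gut poly(A) RNA of 9 fish (3 per day) was sequenced. The authors deposited FPKM per assembled transcript, with best protein matches, per the file headers. Tools listed per the submitters' processing notes are cutadapt 1.9 and a build, mm10, with no role stated; no assembler or aligner is named in these sources. No read counts were used, so depth is unknown.

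FPKM were divided by median-of-ratios size factors (0.7094 to 1.285) from 45176 transcripts above 0 in all libraries. Of 59331 transcripts, 54200 that reached an FPKM of 1 in 3 or more libraries were tested with limma 3.58.1 (R 4.3.3; lmFit and eBayes with trend) on log2(scaled FPKM + 1), with all 9 libraries in the fit, two-sided, with Benjamini-Hochberg adjustment over all tested transcripts. The method was tested on simulated data. List genes were taken by Swiss-Prot symbol, Swiss-Prot entry name or KEGG gene name among 26712 transcripts with a fish as best match. By hand, 71 pairs of symbol and protein were left out. Where several transcripts share a symbol, a list holds the one with the highest mean over all 9 libraries. This choice can favour transcripts that are high in 1 group. Of 990 listed symbols 744 were found and 734 tested.

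Named were called transcripts with a symbol, a fish match, no overlap between the groups and a mean of 5 or more in the group with more: the 15 highest (1 of them is not reported here) and 15 lowest changes, the 8 rises and 8 falls nearest to turning back by day 30, and in each list the 4 members with the smallest p, called or not. PCNA, MCM2 to MCM7, NR3C1 and the mitochondrially encoded transcripts other than the called MTND1 fall outside this rule and were chosen after their values were seen, as were some further members and uncalled transcripts given for context. The members and lists were chosen with earlier results of these data known. Nothing beyond separate fish is known of the replicates. The alternatives tried are given at the end: scaling, pseudocount, filters, fewer libraries, a replicate block and another threshold.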

Additional observations from a re-analysis of the deposited data

Results flagged for a closer look

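The 1 transcript that passed the direct test of day 30 against day 14 has no protein match (TRINITY_DN38823_c0_g2_i1_1), and it differed between the days. It had scaled FPKM of 14.4, 5.22 and 10.2 in Ori, 30.9, 15.5 and 25.6 in D14FL and 0.331, 0.0289 and 0.0767 in D30FL. The difference of day 30 from day 14 was -4.40 on the log2 scale (SE 0.40, limma adjusted p = 0.0113). Against day 0 its log2 change was 1.23 at day 14 (adjusted p = 0.126) and -3.17 at day 30 (adjusted p = 0.00659).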

How the results depend on the processing

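Counts of calls at day 14 moved with the processing, and the cause was not tested except where fewer samples or transcripts entered by construction. In the order higher, lower and also called at day 30, they were 435, 646 and 646 as reported. On the deposited FPKM they were 1176, 325 and 862, and 1 change turned back at day 30. A pseudocount of 0.1 gave 393, 294 and 422, a mean FPKM of at least 5 gave 335, 422 and 478, and fish-matched transcripts alone gave 145, 223 and 206. Ori and D14FL alone gave 930 and 1277, with no value for day 30. An adjusted p under 0.1 gave 1304, 1798 and 1947. Leaving out 1 library at a time gave 43 to 1077 higher, 46 to 1464 lower, 74 to 1413 also called at day 30 and 0 to 1 turned back; where a group is left with 2 fish, its spread is pooled with the others. With the replicate number as a block, the counts were 111, 155 and 174, though a number is shared by different fish: correlations of same-numbered deviations ran from -0.315 to 0.111. Quantile scaling, scaling on fish-matched transcripts, no filter and no trend kept these counts within 1.5 times. No named transcript that was called reversed its direction under any alternative run. This was largely fixed in advance by the size of the changes and the rule of no overlap, so it is no test of stability.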

Other observations

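Calls at day 14 fell unevenly over the organisms of the best protein match. Among 294 tested transcripts whose best match is a bird, 34 were called lower (11.6%) and 1 higher. Among 725 matched to mammals, 67 were called higher (9.24%) and 6 lower. The bird-matched falls included skeletal muscle transcripts such as MYLPF and TNNT3, both matched to chicken. The mammal-matched rises included mitochondrial and ribosomal transcripts such as MTND2, matched to human, and RPS24, matched to rabbit. All are counted among the 1081 calls, and their origin was not tested. For the 34 bird-matched falls the median scaled FPKM was 10.9, 5.01 and 3.31 in Ori and 0 in each D14FL library, and 29 of them were also called lower at day 30. For the 67 mammal-matched rises the medians were 0.423, 0.233 and 0 in Ori and 6.16, 4.50 and 3.23 in D14FL, and 30 were also called higher at day 30. Under 1 scaled FPKM lay 29 of the bird-matched falls in all D14FL libraries and 45 of the mammal-matched rises in all Ori libraries. Most thus entered the test through the libraries where they were high, which limits what the shares called can show. The summed share of FPKM of bird-matched transcripts was 0.85% to 1.41% in Ori and 1.07% to 1.34% in D14FL, and that of mammal-matched transcripts was 5.07% to 6.82% and 3.77% to 4.20%.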
